A study of Homo sapiens with 16 samples.

Results

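The core YAP target genes examined here are CCN1, CCN2, ANKRD1, AXL, CRIM1, F3, LATS2, AMOTL2, PTPN14 and NUAK2, 10 human genes that are widely used to read out the activity of the coactivator YAP. Their chromatin was followed in 49 of the 74404 peak intervals of a CUT&Tag experiment, chosen because each overlaps one of the genes or lies within 10000 bp of an annotated transcript start of it. PTPN14 had 15 such intervals, CRIM1 10, AMOTL2 5, LATS2 5, ANKRD1 4 and CCN1 3; AXL, F3 and NUAK2 had 2 each and CCN2 had 1. Intervals are numbered along each gene from its 5′ side, so that CCN1-1 lies farthest upstream. Intervals of 1 gene share their locus and are not replicates of a condition.

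All libraries came from HEK293, a human embryonic kidney cell line, with the genotype eGFP-YAP, which controls and treated cells alike carry. The labels do not say how the tagged gene is driven or whether the line is 1 clone. Cells received vehicle, or sorbitol at 200 mM for 1 h, a hyperosmotic stress. The column names of the counts give vehicle an earlier time point than sorbitol, while the treatment protocol says controls were collected in parallel. Time and treatment may therefore differ together. In CUT&Tag an antibody directs a transposase to its target on the chromatin of isolated nuclei, and the DNA cut nearby is sequenced. Antibodies were against CTCF, RAD21, the histone mark H3K27ac or GFP. The last of these detects the tagged YAP, and the labels name its libraries YAP1. Each of these 4 targets had 2 vehicle and 2 sorbitol libraries, 16 in all. The labels do not say that replicates are separate cultures, so p-values measure the spread between these libraries, which may be technical.

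YAP has no DNA-binding domain of its own and reaches chromatin mainly through TEAD transcription factors, which recognise a short core sequence often accompanied by AP-1 sites. The Hippo kinases LATS1 and LATS2 phosphorylate YAP and keep it in the cytoplasm, and several YAP targets encode proteins that in turn restrain YAP. H3K27ac marks active promoters and enhancers. CTCF binds a long consensus sequence and, with cohesin, of which RAD21 is a subunit, anchors chromatin loops.

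The TEAD core GGAATG, read on both strands, occurred in 22 of the 49 intervals and in 23.1% of all 74404 intervals. Longer intervals hold it more often by length alone, and the share was compared within width classes. Among intervals of 1000 to 1999 bp, 6 of 8 held it against 43.3% of all such intervals; among those of 600 to 999 bp, 5 of 9 against 29.9%; among those of 200 to 299 bp, 3 of 13 against 11.9%. The AP-1 core TGANTCA occurred in 8 of 49 intervals against 12.6% of all, and the CTCF consensus with at most 1 mismatch in 4 of 49 against 18.4%. These matches describe the letters of the hg38 sequence and show no binding. The following stretches hold TEAD cores, in capitals, in 5 intervals of CCN2, CCN1, ANKRD1 and AMOTL2 that are described below, each written along the strand of its gene. The core of AMOTL2-2, which overlaps a UTR, is not shown.
CCN2-1, chr6:131951447-131951556, minus strand, 75 to 184 bp upstream of the canonical start: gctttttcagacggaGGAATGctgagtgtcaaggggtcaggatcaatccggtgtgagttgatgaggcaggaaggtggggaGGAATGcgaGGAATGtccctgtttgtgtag
CCN1-2, chr1:85580631-85580676, plus strand, 85 to 130 bp upstream: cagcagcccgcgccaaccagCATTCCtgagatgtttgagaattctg
CCN1-3, chr1:85584360-85584540, plus strand, 3599 to 3779 bp downstream: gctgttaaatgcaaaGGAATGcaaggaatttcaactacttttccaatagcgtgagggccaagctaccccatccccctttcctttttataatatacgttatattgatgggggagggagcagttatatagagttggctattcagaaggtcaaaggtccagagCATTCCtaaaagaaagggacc
ANKRD1-3, chr10:90921190-90921327, minus strand, 103 to 240 bp upstream: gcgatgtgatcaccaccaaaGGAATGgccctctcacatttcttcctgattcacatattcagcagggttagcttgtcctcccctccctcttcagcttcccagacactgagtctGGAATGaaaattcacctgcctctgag
AMOTL2-3, chr3:134364642-134364687, minus strand, in an intron: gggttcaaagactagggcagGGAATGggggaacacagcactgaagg
CCN2-1 held 3 cores, of which a pair stands 3 bases apart. CCN1-2 and AMOTL2-3, of which 1 core each is shown, CCN1-3 and ANKRD1-3 held 2 cores each.

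Under vehicle, YAP1 stood high at these genes. Levels between intervals were compared as the vehicle mean of CPM, counts scaled to a common library size, per kilobase (CPM per kb), ranked among all 74404 intervals. The median percentile of the 49 intervals was 73.0 for YAP1, 61.0 for H3K27ac, 41.7 for RAD21 and 34.9 for CTCF. For YAP1, 13 of the 49 lay above the 90th percentile and 7 above the 95th, with CCN1, CCN2, ANKRD1, AMOTL2, CRIM1, PTPN14 and LATS2 represented among the 13. The highest was CCN1-3 at percentile 99.2, followed by CCN1-2 at 98.7. The 22 intervals with a TEAD core had a median YAP1 percentile of 88.5, against 49.2 for the 27 without one, a description over intervals that also differ in width. CCN1-3, which overlaps an exon of a noncoding transcript at the 3′ end of CCN1 and runs past the end of the gene, combined that YAP1 level with percentiles of 31.5 for H3K27ac and 34.4 for CTCF. ANKRD1-3 likewise stood at 98.5 for YAP1, 33.8 for H3K27ac and 24.4 for CTCF.

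**Figure D1:**
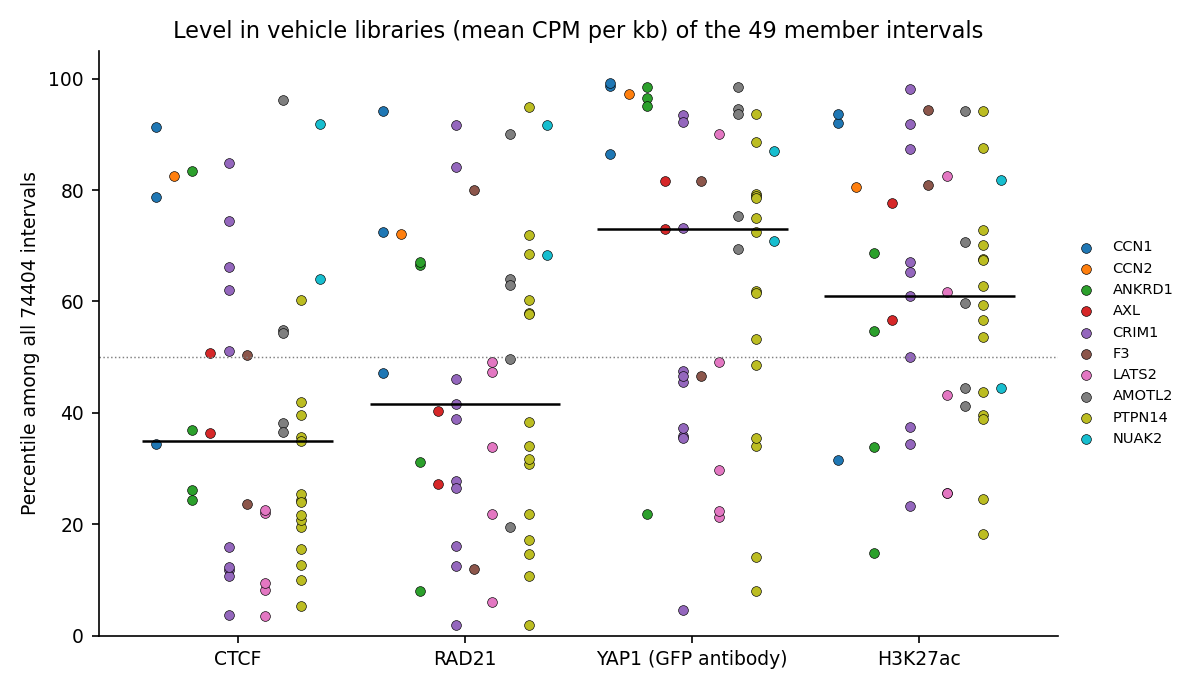
Percentile of each of the 49 intervals among all 74404 intervals by mean vehicle CPM per kb (y axis), for the 4 targets (x axis). Each point is an interval coloured by gene, and black lines mark the medians, which are 73.0 for YAP1 and 34.9 for CTCF.

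Sorbitol was compared with vehicle by edgeR's quasi-likelihood test in each target, and a change was called at a Benjamini-Hochberg adjusted p under 0.05 over all tested intervals of that target. CPM values of single libraries below are on TMM-scaled library sizes. Of the 49 intervals, 25 had enough counts to be tested for YAP1, 43 for H3K27ac, 19 for CTCF and 11 for RAD21. An interval could pass this count filter through its vehicle or its sorbitol libraries alone. Signs and medians over tested intervals can therefore lean in the direction of the filter and are descriptions. Library totals ran from 1.19 to 8.84 M counts. In YAP1 libraries, mitochondrial intervals took 36.5% and 38.1% of counts under vehicle and 55.4% and 57.8% under sorbitol. The YAP1 sorbitol libraries had effective sizes of 1.77 and 1.25 M against 6.50 and 5.34 M for vehicle, and low counts limit every YAP1 result below.

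YAP1 fell after sorbitol in 3 of the 25 tested intervals, at CCN1-3, ANKRD1-3 and AMOTL2-2, and rose in none by this test. Of all 22765 intervals tested for YAP1, 6.83% were called and 1.49% were called lower. Among the members the share was 12.0%, which rests on 3 intervals. That background was not matched for counts, and the members stood high in YAP1. In a fit on the 4755 intervals with a mean of at least 50 counts, 350 were called lower. DESeq2 also called 3, against 1273 of all 22765 intervals. An unadjusted p under 0.05 in edgeR was found at 9 members, against 4557 of all 22765. The median log2 fold change over the 25 was -0.46, or -0.38 with the interval at 0 counts set to its bound, against -0.04 over all tested intervals. Without YAP1 sorbitol replicate 2 the count was 6 and held the same 3, with CCN1-2 (-0.83, adjusted p = 0.0241) and PTPN14-1 (-1.10, adjusted p = 0.0185) among the additions; this fit called 1042 of all 31610 intervals it tested lower. The 3 calls also held with the dominant intervals, which include the mitochondrial ones, left out.

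ANKRD1 encodes an ankyrin-repeat protein of muscle and nuclei that is a much-used YAP reporter. At ANKRD1-3 (chr10:90921107-90921672, 20 bp upstream of the gene), YAP1 counts were 92 and 79 under vehicle and 2 and 3 under sorbitol. On TMM-scaled sizes these were 14.2 and 14.8 CPM against 1.13 and 2.40 CPM, with both sorbitol libraries far below both vehicle libraries. The log2 fold change was -3.10 ± 0.53 (SE, adjusted p = 0.000654). Since the sorbitol counts are at most 3, the fall is better read as a ratio of 8.72, with a counting interval at 95% from 3.67 to 27.2. Its percentile among all intervals went from 98.5 to 46.2. At 9951 and 9127 bp upstream of the start, ANKRD1-1 (64 and 34 counts, then 8 and 3) and ANKRD1-2 (72 and 50, then 2 and 9) had log2 fold changes of -1.17 ± 0.54 and -1.45 ± 0.56, neither past the threshold (adjusted p = 0.231 and 0.145). All 3 tested ANKRD1 intervals had a negative YAP1 estimate, also when scaled to totals or to the weakest intervals. They passed the count filter through their vehicle libraries, so the shared sign is not separate support for a fall. ANKRD1-4, near the 3′ end, was too low to test, with at most 6 counts. It went the other way, from 0.31 and 1.12 CPM under vehicle to 2.83 and 2.40 CPM under sorbitol.

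CCN1 and CCN2 encode secreted matricellular proteins that bind integrins, and both are among the most cited YAP targets. At CCN1-3 (chr1:85584288-85584678), YAP1 counts were 98 and 70 under vehicle and 8 and 2 under sorbitol. In CPM the vehicle libraries had 15.1 and 13.1 and the sorbitol libraries 4.52 and 1.60, without overlap. The log2 fold change was -2.09 ± 0.47 (adjusted p = 0.00821). This call was lost without YAP1 vehicle replicate 1, where the adjusted p was 0.119. CCN1-2 (chr1:85580330-85581681), which covers the start of the same gene, had 34.5 and 38.4 CPM under vehicle and 21.5 and 36.0 CPM under sorbitol. The groups overlapped there, and the log2 fold change of -0.38 ± 0.24 did not pass (adjusted p = 0.408). Its percentile stayed high, at 98.7 and 96.6. CCN1-1, which lies upstream at the starts of DDAH1 and a noncoding gene, had 7.39 and 10.5 CPM, then 9.05 and 6.41 CPM.

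CCN2-1 (chr6:131950279-131951693), the only CCN2 interval, covers the start of the gene and of the noncoding LINC01013. YAP1 counts there were 180 and 134 under vehicle and 57 and 37 under sorbitol, which is 27.7 and 25.1 CPM against 32.2 and 29.6 CPM. The log2 fold change was 0.23 ± 0.22 (adjusted p = 0.605), and its percentile was 97.2 under vehicle and 96.7 under sorbitol. Scaled to total counts, the same interval gave -1.19 (adjusted p = 0.00391), so its direction depends on the scaling.

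AMOTL2 (an angiomotin family protein that binds YAP and holds it at cell junctions) showed the third fall. At AMOTL2-2 (chr3:134373436-134375047, covering the start), YAP1 counts were 269 and 223 under vehicle and 26 and 19 under sorbitol. These gave 41.4 and 41.8 CPM against 14.7 and 15.2 CPM, the highest vehicle level on this scale among the 49 and the closest replicates of the 3 called intervals. The log2 fold change was -1.48 ± 0.24 (adjusted p = 0.00041). The intronic AMOTL2-3 had 78 and 62 counts, then 13 and 2, and a log2 fold change of -1.27 ± 0.48 that did not pass (adjusted p = 0.132). AMOTL2-5, also intronic, had 16 and 15 counts, then 2 and 2 (log2 fold change -0.96 ± 0.88, adjusted p = 0.583).

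Other proteins that act on the Hippo pathway are encoded by LATS2, PTPN14 and NUAK2. LATS2 is the kinase that phosphorylates YAP. LATS2-1, at its start, had 14.6 and 15.2 YAP1 CPM under vehicle and 16.4 and 9.61 CPM under sorbitol, so that the sorbitol libraries lay on both sides of vehicle (log2 fold change -0.15 ± 0.32, adjusted p = 0.842). PTPN14 is a phosphatase that retains YAP outside the nucleus. PTPN14-1, at its start, had 24.3 and 24.4 CPM, then 11.9 and 20.8 CPM (-0.62 ± 0.29, adjusted p = 0.228). NUAK2 is a kinase related to AMPK that acts to promote YAP activity. NUAK2-2, at its start, had 5.85 and 8.25 CPM under vehicle and 11.3 and 15.2 CPM under sorbitol, the largest positive estimate among the 25 (0.90 ± 0.39, adjusted p = 0.202), and it was -0.53 when scaled to totals.

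AXL, CRIM1 and F3 encode cell-surface proteins. AXL encodes a receptor tyrosine kinase. AXL-2, at an alternative start, had 3.85 and 2.62 CPM, then 3.39 and 1.60 CPM (-0.31 ± 0.71, adjusted p = 0.852), and AXL-1 had 20 and 11 counts, then 3 and 1, and was not tested. CRIM1 encodes a transmembrane protein that binds BMP ligands. CRIM1-1 and CRIM1-2, side by side at its start, had log2 fold changes of 0.09 ± 0.45 and 0.85 ± 0.62 (adjusted p = 0.939 and 0.473). The intronic CRIM1-4, with 13 and 14 counts under vehicle and 0 under sorbitol, was at least 1.13-fold lower when sorbitol is set to a floor of 3 counts per library, and did not pass (adjusted p = 0.122). F3 encodes tissue factor, which starts blood coagulation. F3-1 had 8.31 and 9.00 CPM, then 7.91 and 16.8 CPM (0.45 ± 0.40, adjusted p = 0.564). None of these surface genes had an interval where YAP1 changed by this test.

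**Figure D2:**
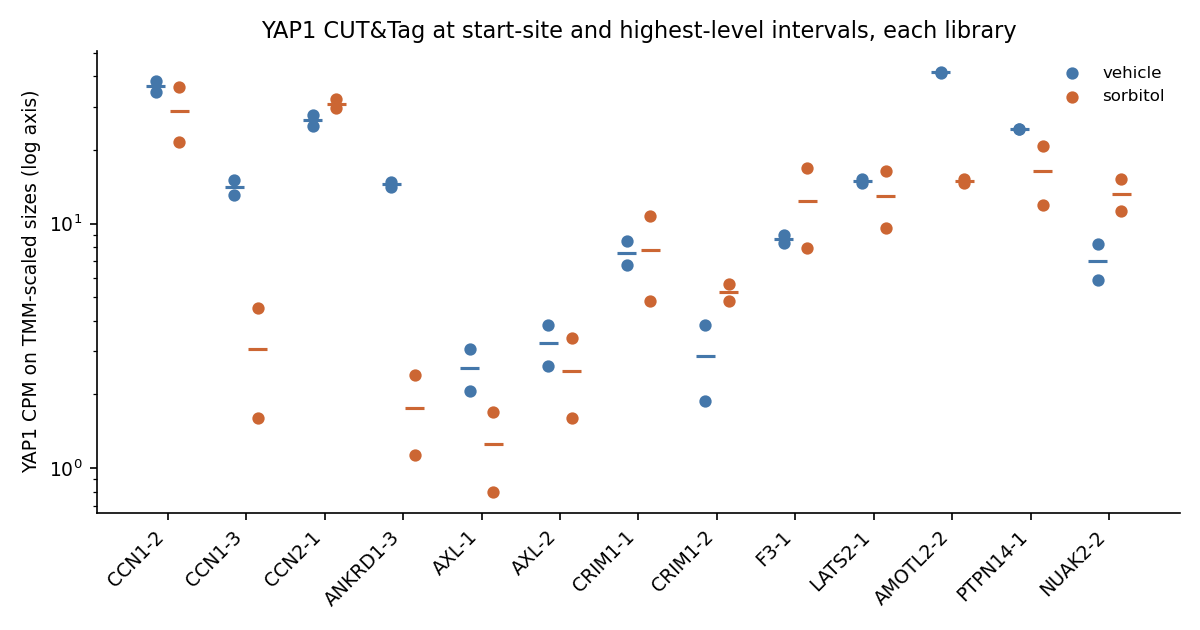
YAP1 CPM on TMM-scaled library sizes (log axis) in each of the 2 vehicle and 2 sorbitol libraries, with a dash at each mean, for 13 intervals at gene starts or with the highest YAP1 level of their gene. Sorbitol points lie far below vehicle at CCN1-3, ANKRD1-3 and AMOTL2-2 and mix with vehicle at CCN1-2 and LATS2-1.

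H3K27ac changed in 8 of the 43 tested intervals, with 6 higher and 2 lower after sorbitol, a split that depended on the scaling, as given below. Of all 56601 tested intervals 23.1% were called, 4863 higher and 8206 lower. The share of the members is near that background. The median log2 fold change was 0.18 over the 43 and 0.02 over all tested intervals. Of the 6 rises, 5 lay in PTPN14, a pattern noticed after the values were seen, and the other was CCN2-1. The count of 8 was 5 without H3K27ac vehicle replicate 2, sorbitol replicate 1 or sorbitol replicate 2, each left out alone, and PTPN14-8, PTPN14-9 and CRIM1-2 were called in every such fit.

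The largest change was at PTPN14-8 (chr1:214520516-214520906, in an intron, 30.9 kb from the start by its centre). Its counts were 24 and 24 under vehicle and 111 and 91 under sorbitol, or 3.82 and 3.88 CPM against 11.8 and 11.2 CPM. The log2 fold change was 1.58 ± 0.27 (adjusted p = 2.22e-05), with both sorbitol libraries well above both vehicle libraries. PTPN14-9 (chr1:214514111-214515012, in an intron) had 14.0 and 11.5 CPM, then 25.3 and 21.6 CPM, a log2 fold change of 0.88 ± 0.18 (adjusted p = 0.000199). PTPN14-13 and PTPN14-14, intronic neighbours, rose by 0.66 ± 0.23 and 0.60 ± 0.22 (adjusted p = 0.0372 and 0.0449). Both calls were lost without vehicle replicate 1 (adjusted p = 0.225 and 0.431), the first also without sorbitol replicate 2 (0.228) and the second without sorbitol replicate 1 (0.352). PTPN14-1 at the start had 101.6 and 99.7 CPM, then 117.8 and 114.8 CPM, a rise of 0.21 ± 0.07 (adjusted p = 0.0357) that became -0.06 when scaled to the weakest intervals and was not called without any 1 of the 4 libraries (adjusted p from 0.0630 to 0.166). Across the gene, 14 of the 15 intervals had a positive estimate, from -0.02 to 1.58. The number was 15 when scaled to totals and 13 when scaled to the weakest intervals, on the same counts. These intervals share a locus and could pass the count filter through their sorbitol libraries alone. Their shared sign is therefore not separate support for a rise. PTPN14-5 lies within 1000 bp of the start of the pseudogene KRT18P12.

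**Figure D3:**
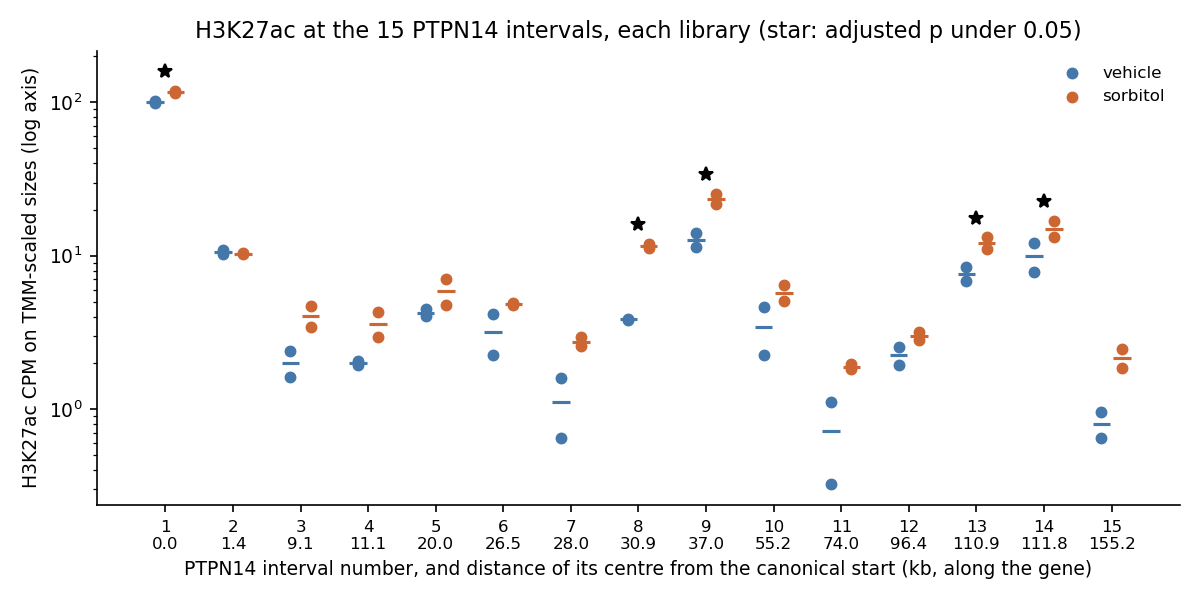
H3K27ac CPM on TMM-scaled library sizes (log axis) at the 15 PTPN14 intervals, with interval number and distance from the canonical start in kb on the x axis, each library as a point and each mean as a dash. Stars mark the 5 intervals with adjusted p under 0.05, and in interval 8 the sorbitol libraries stand at 11.8 and 11.2 CPM above vehicle at 3.82 and 3.88.

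CRIM1 went the other way at its start. CRIM1-2 (chr2:36356122-36357234), the interval with the highest H3K27ac percentile of the 49 (98.2), had 468 and 582 counts under vehicle and 502 and 442 under sorbitol, or 74.6 and 94.1 CPM against 53.6 and 54.3 CPM. It fell by 0.64 ± 0.10 on the log2 scale (adjusted p = 1.94e-06). All 8 tested CRIM1 intervals had negative H3K27ac estimates under TMM, total and weakest-interval scaling, and CRIM1-2 was the 1 call among them under TMM. Weakest-interval scaling also moved the median of all tested intervals to -0.24. The CRIM1 intervals share a locus and could pass the count filter through vehicle libraries alone. Their shared sign is therefore not separate support for a fall. CCN1-1 had 48.6 and 49.8 CPM, then 38.2 and 39.5 CPM (-0.34 ± 0.11, adjusted p = 0.0167), but it lies at the starts of DDAH1 and a noncoding gene. The call was lost without vehicle replicate 2 (adjusted p = 0.0689) and without sorbitol replicate 1 (0.1097). CCN2-1 had 36.5 and 32.6 CPM, then 43.98 and 42.6 CPM (0.33 ± 0.11, adjusted p = 0.0348), and the call was lost without vehicle replicate 2, sorbitol replicate 1 or sorbitol replicate 2 (adjusted p = 0.255, 0.137 and 0.0713). At the intervals where YAP1 fell, H3K27ac log2 fold changes were 0.32 ± 0.51 at CCN1-3, -0.33 ± 0.48 at ANKRD1-3 and 0.05 ± 0.08 at AMOTL2-2, none past the threshold (adjusted p = 0.696, 0.661 and 0.699).

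CTCF changed in 7 of 19 tested intervals, with 1 higher and 6 lower, against 40.2% of all 39261 tested. RAD21 changed in 1 of 11, which was lower, against 4.79% of all 17011 tested. With DESeq2 the CTCF count was 2, against 11340 of all 39261 intervals, and the RAD21 count was 0, against 366 of all 17011. Both member counts were also lower without either vehicle library, as were the CTCF calls over all tested intervals. Median log2 fold changes were -0.36 for CTCF and -0.42 for RAD21, against -0.06 and -0.01 over all tested intervals. The clearest fall was at AMOTL2-1 (chr3:134378295-134378824), which lies 2816 bp upstream of the nearest AMOTL2 start and holds a match to the CTCF consensus, shown in capitals on the minus strand of the gene.
AMOTL2-1, chr3:134378542-134378595: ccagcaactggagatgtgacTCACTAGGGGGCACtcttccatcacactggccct
CRIM1-9, chr2:36459995-36460048, plus strand, in an intron: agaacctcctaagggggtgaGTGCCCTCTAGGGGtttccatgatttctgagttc
At AMOTL2-1 CTCF counts were 130 and 101 under vehicle and 9 and 14 under sorbitol, or 19.4 and 23.0 CPM against 4.47 and 6.59 CPM. The log2 fold change was -1.92 ± 0.34 (adjusted p = 0.000136). RAD21 counts in the same interval were 19 and 13 under vehicle and 0 in both sorbitol libraries, at least 2.90-fold lower against a floor of 3 counts per library (adjusted p = 0.0457). That RAD21 call was lost without vehicle replicate 2 (adjusted p = 0.552), without sorbitol replicate 1 (0.0716) and with GC-corrected offsets (0.0680). YAP1 at AMOTL2-1 had only 12 and 16 counts, then 3 and 6, and was not tested, and the H3K27ac estimate there was -0.32 ± 0.33 on the log2 scale (adjusted p = 0.508). CTCF was thus called lower upstream of AMOTL2, with the less stable RAD21 call, and YAP1 was called lower at its start. In edgeR's test of the YAP1 against the CTCF response, the log2 difference was 2.07 at AMOTL2-1 (adjusted p = 0.0946). At AMOTL2-2 it was -1.15 (adjusted p = 0.0865). Neither passed, so a different response of YAP1 and CTCF at these places was not shown.

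CRIM1 held 2 intronic falls of CTCF and a rise at its start. CRIM1-9, with the consensus match printed above, had 29 and 17 CTCF counts under vehicle and 1 and 2 under sorbitol, a ratio of 5.71 with a counting interval at 95% from 1.84 to 28.7 (adjusted p = 0.0192). This call was lost without vehicle replicate 1, vehicle replicate 2 or sorbitol replicate 1 (adjusted p = 0.311, 0.183 and 0.0755). CRIM1-10 had 53 and 35 counts, then 0 and 6 (log2 fold change -2.43 ± 0.67, adjusted p = 0.00649, and 0.0510 without sorbitol replicate 1), and RAD21 there went from 20 and 9 counts to 1 and 0 without passing (adjusted p = 0.0927). CRIM1-2 at the start had 7.46 and 6.14 CTCF CPM under vehicle and 23.4 and 17.4 CPM under sorbitol (1.56 ± 0.32, adjusted p = 0.000513). Its RAD21 estimate was 1.74 ± 0.52 (adjusted p = 0.0763), and the CTCF rise was 0.58 and no longer called when scaled to totals (adjusted p = 0.145). Over 14 alternatives each, the CTCF calls held in 11 at CRIM1-2, 10 at CRIM1-10 and 6 at CRIM1-9, all 3 being lost with GC-corrected offsets. The remaining CTCF falls were CCN1-2 (37.7 and 36.4 CPM, then 28.3 and 18.4), CCN2-1 (27.1 and 22.5, then 14.9 and 16.01) and NUAK2-1 (15.1 and 16.1, then 10.9 and 5.65). Their log2 fold changes were -0.67 ± 0.22, -0.69 ± 0.25 and -0.91 ± 0.34 (adjusted p = 0.0172, 0.0327 and 0.0376). CCN2-1 lost its call without any 1 of the 4 CTCF libraries (adjusted p from 0.0533 to 0.278), and CCN1-2 and NUAK2-1 lost theirs without any library except sorbitol replicate 1 (adjusted p from 0.0523 to 0.219 and from 0.115 to 0.311).

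**Figure D4:**
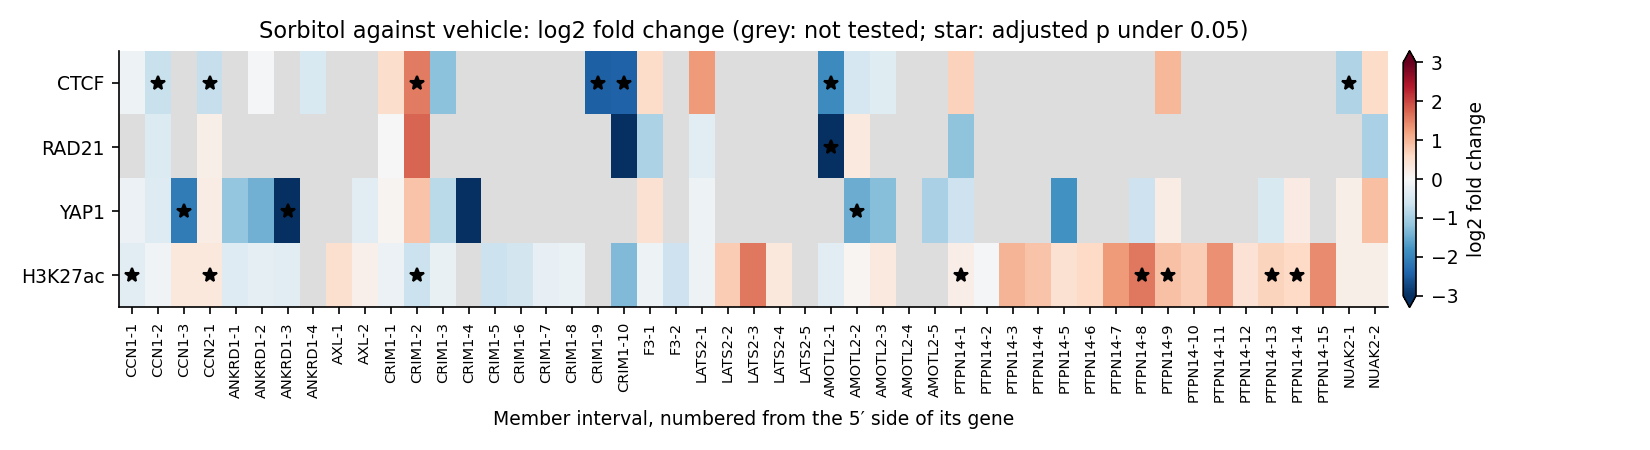
Log2 fold change of sorbitol against vehicle (colour, cut at -3 and 3) for the 49 intervals (x axis) and the 4 targets (y axis); grey intervals were not tested and stars mark adjusted p under 0.05. YAP1 stars fall on CCN1-3, ANKRD1-3 and AMOTL2-2, and 5 of the 8 H3K27ac stars on PTPN14.

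Whether YAP1 and H3K27ac responded differently at the same interval was tested as an interaction over their 8 libraries. YAP1 went lower relative to H3K27ac in 6 of 40 tested intervals and higher in none, against 6.27% of all 52935 tested, 3.73% being lower, whose median difference was -0.22. The 6 were CCN1-3 (-2.77 ± 0.73, adjusted p = 0.0073), ANKRD1-3 (-3.14 ± 0.80, 0.0051), AMOTL2-2 (-1.88 ± 0.26, 2.99e-09), AMOTL2-3 (-1.90 ± 0.49, 0.0061), PTPN14-1 (-1.20 ± 0.27, 0.000918) and PTPN14-8 (-2.54 ± 0.73, 0.0157). In the first 3 YAP1 itself was called lower; at PTPN14-8 H3K27ac was called higher and YAP1 was not called (-0.62 ± 0.73). At PTPN14-1 the acetylation was called higher, with YAP1 at -0.62, and at AMOTL2-3 neither target passed alone. H3K27ac itself was low at CCN1-3, with 13 and 8 counts under vehicle and 23 and 14 under sorbitol. It was also low at ANKRD1-3, with 9 and 24, then 21 and 16. The differences at CCN1-3 and ANKRD1-3 therefore say little about acetylation there. Without YAP1 sorbitol replicate 1 the count was 3: CCN1-3, AMOTL2-2 and AMOTL2-3 kept their call, and ANKRD1-3, PTPN14-1 and PTPN14-8 had adjusted p of 0.0576, 0.0621 and 0.101. CCN1-3 lost its call without H3K27ac vehicle replicate 2 (0.0536) or sorbitol replicate 1 (0.0818), AMOTL2-3 without YAP1 sorbitol replicate 2 (0.0936) and ANKRD1-3 also without H3K27ac vehicle replicate 1 (0.0599). PTPN14-8 lost it without 3 further libraries, which were YAP1 vehicle replicate 2 (0.116), H3K27ac vehicle replicate 1 (0.0506) and H3K27ac sorbitol replicate 1 (0.0650). At CCN2-1 the difference was -0.44 and did not pass. Against CTCF, 2 of 30 intervals differed, 1 in each direction, with 11.6% of all 43735 called. Over all of these, 1570 were called higher and 3485 lower in edgeR, with a median difference of -0.31. DESeq2 turned that balance, with 3014 higher and 1041 lower and a median of 0.29, and its 3 called members were all higher. With its size factors in edgeR the split was 2609 higher and 1181 lower, with a median of 0.19. PTPN14-1 was lower for YAP1 (-1.47 ± 0.48, adjusted p = 0.0316). CRIM1-9 was called higher (adjusted p = 0.0355), where YAP1 had 0 and 1 counts, then 2 and 2, so its fitted difference rests on counts at or under the floor. The call at PTPN14-1 against CTCF was lost without any 1 of 6 of the 8 libraries, with adjusted p of at most 0.125, and that at CRIM1-9 without any 1 of 7, with at most 0.190.

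Many of these counts depended on the scaling. With scaling to total counts, YAP1 was called lower in 20 of 25 intervals, against 65.0% of all tested intervals, whose median shifted to -1.46; the median of the 25 was then -1.87. CTCF then had 10 calls, all lower (59.0% of all tested), RAD21 2 lower (8.53%), and H3K27ac 10 higher and 1 lower (24.8%). YAP1 was lower relative to H3K27ac in 24 (34.6%), and relative to CTCF it was higher in 1 and lower in 3 (12.9%). With scaling to the weakest 25% of intervals, CTCF had 2 higher and 3 lower (41.4%), RAD21 1 higher and 1 lower (10.0%), H3K27ac 2 higher and 10 lower (29.2%), and YAP1 against CTCF 1 higher and 4 lower (19.9%). The YAP1 count stayed at 3 lower under that scaling. CCN1-3, ANKRD1-3 and AMOTL2-2 were called lower under all 3 scalings, as was AMOTL2-1 for CTCF.

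In 12 other genes of a published YAP target signature, 83 intervals were found by the same rule. YAP1 was called in 2 of their 22 tested intervals, 1 higher and 1 lower, and H3K27ac in 14 of 66, 5 higher and 9 lower. Over all tested intervals, 6.83% were called for YAP1 and 23.1% for H3K27ac. The YAP1 rise was beside FOXF2, a forkhead transcription factor, with 1343 and 1254 counts under vehicle and 1175 and 1011 under sorbitol. On TMM-scaled sizes the edgeR log2 fold change was 1.74 ± 0.22 (adjusted p = 1.52e-05). At the same interval CTCF was also called higher (2.00, adjusted p = 1.32e-10) and H3K27ac lower (-0.25, adjusted p = 0.0233). The YAP1 fall was deep in RBMS3, an RNA-binding protein gene, with 21 and 26 counts, then 0 in both; both intervals are named after their values were seen. In 12 Hippo pathway genes with 73 intervals, edgeR called YAP1 in 0 of 21 tested intervals and DESeq2 in 0. DESeq2 called 1273 of all 22765 intervals tested for YAP1. An unadjusted p under 0.05 in edgeR was found at 3 of the 21, against 4557 of all 22765. H3K27ac was called in 14 of 61, 9 higher and 5 lower. No difference between these lists and the 10 genes was tested.

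As a check of the labelled cell line, H3K27ac under vehicle was read within 1000 bp of the starts of renal development genes. Percentiles among all intervals were 82.6 at LHX1, 79.1 at PAX2 and 71.7 at EYA1, at the highest interval of each. No interval lay near the starts of PTPRC, CD3E or ALB, markers of leukocytes, T cells and hepatocytes, whereas INS, MYOD1 and GFAP had intervals at percentiles 76.6, 54.8 and 52.5.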

How the data were processed

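The authors' table gives raw, unscaled read counts for each peak interval in 16 libraries. Per the submitters' processing notes, the tools included BWA 0.7.17, MACS2 2.2.6 and bedtools 2.31.1 with the hg38 build; whether single or pooled libraries entered peak calling is not given in the sources used here. The same intervals serve all targets. Columns were matched to samples by target, treatment and replicate, and 0 columns were left unmapped. All 74404 intervals lay within hg38 sequence lengths. No control antibody was analysed here. Totals of single libraries, which set the precision, ran from 1.19 to 8.84 M counts.

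Members were found with GENCODE 44. The main test was edgeR 4.0.16 (R 4.3.3), quasi-likelihood, robust and two-sided, separately on the 4 libraries of each target, with TMM and filterByExpr at a minimum of 10 counts; differences between targets were interactions over 8 libraries. An adjusted p is Benjamini-Hochberg over all tested intervals. SE derives from the F statistic; counting intervals and floors cover counting error only, since PCR copies are not independent molecules. Replicates of a group differed by more than counting noise (chi-square per degree of freedom 1.90 to 4.00). Deviations of same-numbered replicates correlated at -0.03 (CTCF), -0.11 (RAD21), 0.02 (YAP1) and -0.01 (H3K27ac), so no pairing by number was seen. The labels do not say whether equal numbers share a culture or batch.

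Alternatives were DESeq2 1.42.0, its size factors, scaling to totals or to the weakest 25% of intervals, leaving out dominant intervals (mitochondrial, unplaced, inside the YAP1 gene, or above 0.1% of a library), no low-count filter, a minimum mean of 50 counts, all 16 libraries, a replicate block, GC-corrected offsets, both together, and leaving out each replicate. On simulated counts with 200 intervals changed 2-fold, the step recovered 41% for H3K27ac, 21% for CTCF, 10% for YAP1, 6% for YAP1 against H3K27ac, 2% for YAP1 against CTCF (with 4 false calls) and 0% for RAD21. The data held more calls, such as 1555 for YAP1 and 15768 for CTCF, and adjusted p depends on that number. Simulated interactions gave both targets the same mean level at an interval. Recovery in the data may therefore differ.

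Members and lists were chosen with earlier results of these data known. Per-library values are given for the interval nearest a protein-coding start and that with the highest YAP1 level of each gene, for every YAP1 call, and for the 3 smallest adjusted p among calls of each other target; every interaction call is named. Calls outside this rule (CTCF at CCN1-2, CRIM1-9, CCN2-1 and NUAK2-1, H3K27ac at CCN1-1, CCN2-1, PTPN14-1, PTPN14-13 and PTPN14-14) and the other intervals named were added after their values were seen. 1 marker of the cell line check is not reported here.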

Additional observations from a re-analysis of the deposited data

Results flagged for a closer look

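In 8 cases the response of YAP1 to sorbitol differed from that of another target at the same interval, by the interaction test of edgeR. Relative to H3K27ac, YAP1 was lower by a log2 difference of -2.77 at CCN1-3, -3.14 at ANKRD1-3, -1.88 at AMOTL2-2, -1.90 at AMOTL2-3, -1.20 at PTPN14-1 and -2.54 at PTPN14-8. Relative to CTCF, it was lower by -1.47 at PTPN14-1. At CRIM1-9 the fitted difference from CTCF was 5.92, which depends on the prior count because YAP1 had at most 2 counts in any library there. The call at AMOTL2-2 held in all 18 alternatives, those at AMOTL2-3 and PTPN14-1 against H3K27ac in 17 of 18, and those at CCN1-3 and ANKRD1-3 in 15 of 17, and that at PTPN14-8 in 12 of 17. Both calls against CTCF were lost more often than kept, with 7 of 18 alternatives for PTPN14-1 and 7 of 17 for CRIM1-9. Groups of 2 libraries cannot be examined for a single outlying library. Neither the share of mitochondrial reads nor the depth of the YAP1 sorbitol libraries was tested as a source of these differences.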

How the results depend on the processing

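Of 27 calls named in the text, 7 held in every alternative run; over all alternatives, 308 of 418 values kept the call, 109 kept the direction only and 1 reversed. That 1 was H3K27ac at PTPN14-1, -0.058 when scaled to the weakest 25%. Among 9 YAP1 intervals that were not called, 109 of 130 values stayed uncalled in the same direction, 8 became called in the same direction and 13 changed sign, of which 3 (CCN2-1, CRIM1-1 and F3-1, scaled to totals) were then called. Scaled to totals, the YAP1 log2 fold change was -1.19 at CCN2-1, -1.31 at CRIM1-1, -0.56 at CRIM1-2, -0.99 at F3-1 and -0.53 at NUAK2-2. Without a count filter it was -0.17 at CCN2-1 and -0.31 at CRIM1-1, where it was also -0.11 with GC-corrected offsets, -0.054 without YAP1 vehicle replicate 2, -0.76 without YAP1 sorbitol replicate 1 and at most 0.42 without any other library. Without YAP1 sorbitol replicate 2 it was -0.19 at F3-1, where the highest value without 1 library was 0.86, and 0.073 at LATS2-1, where the lowest was -0.72. The cause of these changes was not tested.

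Counts of called members moved by over 1.5 times as follows. With DESeq2, CTCF had 2, RAD21 0 and H3K27ac 3. Over all tested intervals DESeq2 called 11340 of 39261 for CTCF, 366 of 17011 for RAD21 and 5940 of 56601 for H3K27ac. With totals, RAD21 had 2, YAP1 20, YAP1 against H3K27ac 24 and YAP1 against CTCF 4; with the weakest 25%, RAD21 had 2 and YAP1 against CTCF 5. A mean of at least 50 counts, which tests fewer intervals, left CTCF 4, YAP1 1, YAP1 against H3K27ac 3 and YAP1 against CTCF 1, and no count filter gave YAP1 7. Over all intervals, that minimum called 5927 of 10677 for CTCF and 1033 of 4755 for YAP1. It called 2712 of 16699 for YAP1 against H3K27ac and 2116 of 7439 for YAP1 against CTCF. No count filter called 2445 of all 72858 for YAP1. One fit on all 16 libraries gave RAD21 4 and H3K27ac 3, with 3054 of all 17011 intervals called for RAD21 and 4068 of 56601 for H3K27ac. RAD21 had 0 without dominant intervals and 0 with GC-corrected offsets, where 574 of all 14053 and 780 of all 17011 intervals were called. In the fits that left out 1 replicate, the number called over all tested intervals moved as well. Leaving out 1 replicate gave 3 to 6 for CTCF, 0 to 1 for RAD21, 2 to 6 for YAP1, 5 to 7 for H3K27ac, 3 to 8 for YAP1 against H3K27ac and 0 to 2 for YAP1 against CTCF.

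No pairing of samples by replicate number was seen, and the labels do not say whether there was one. With the replicate number as a block, RAD21 had 0 called members and YAP1 against CTCF 1; with block and GC-corrected offsets, RAD21 had 0 and YAP1 at CRIM1-1 was -0.18. The block gave 6 for CTCF, 3 for YAP1, 8 for H3K27ac and 6 for YAP1 against H3K27ac, each within 1.5 times of the count without it. The crossed pairing of RAD21, chosen after seeing the data, gave 0. Over all 17011 intervals tested for RAD21, the block called 486, block with GC-corrected offsets 790 and the crossed pairing 750. The block called 4594 of all 43735 for YAP1 against CTCF. In the simulation given above, most 2-fold changes of YAP1 and RAD21 were not called. Its setting differs from the data, and depth was not varied in it.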
